A study of Mus musculus with 18 samples.

Results

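Splenic Tregs that had lost the high-affinity IL-2 receptor chain CD25 in adult life were compared with splenic Tregs that kept it, in 8 of the 18 RNA-seq samples of the series and over all genes of the count table. The mice carried loxP sites around exon 4 of Il2ra, a tamoxifen-inducible Cre recombinase fused to eGFP and expressed from the Foxp3 locus, and a Rosa26 reporter (R26Y) in which Cre switches on YFP, on the C57BL/6 background. The 4 CD25 KO mice had the floxed Il2ra alleles, and the 4 WT mice were reporter mice with the same Cre and reporter and an intact Il2ra. Both groups received tamoxifen, 5 daily intraperitoneal injections of 70 mg/kg in corn oil, at 7 to 10 weeks of age, and CD4+YFP+ cells were sorted from the spleen 10 to 14 days later, 1 mouse per sample. Cre is made only in Foxp3-expressing cells, so YFP marks cells that expressed Foxp3 when tamoxifen was given, and other cells of the mouse keep Il2ra. The other 10 samples, used only at the end, were thymic Tregs of mice 3 to 4 weeks old. The 5 thymic CD25 KO mice were CD25flox/Foxp3-YFP/Cre mice, in which Cre needs no tamoxifen, and had been given WT splenocytes as newborns against autoimmunity, and the 5 thymic WT mice were Foxp3/RFP reporters. Of 50600 genes in the table, 17463 had enough reads to be tested.

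IL-2 binds CD25 together with CD122 (Il2rb) and the common gamma chain (Il2rg), and the bound receptor activates JAK1 and JAK3, which phosphorylate STAT5. Tregs produce little IL-2 themselves and take it up from neighbouring T cells. Splenic Tregs are commonly described as central cells, which recirculate through lymphoid organs by CCR7, effector cells, which have seen antigen and enter tissues, and follicular regulatory cells, which enter B cell follicles by CXCR5.

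The 8 libraries held 25258341 to 32639570 counts assigned to genes, so the depth differed little, and 3 counts corresponded to 0.0922 to 0.124 CPM (the counts-per-million unit, scaled by TMM factors). The first principal component took 41.1% of the variance and placed all WT mice between -28.0 and -18.1 and all CD25 KO mice between 16.5 and 33.2. All 10 T cell and Treg identity genes, Foxp3, Cd4 and Cd3e among them, were expressed, with summed levels of 4522 to 4763 CPM in WT and 5009.5 to 5524 CPM in CD25 KO mice. Genes of the Y chromosome (Ddx3y, Uty, Kdm5d, Eif2s3y) did not exceed 0.07 CPM in any mouse, and Xist was expressed in all 8. Most markers of other cells were low, and Ighm (the IgM heavy chain), Themis, Cd1d1 and Zbtb46 were the highest. Some of the markers moved with the genotype. The summed B cell list was 445 to 559 CPM in WT and 608 to 734 CPM in CD25 KO mice, nearly all of it Ighm (399 to 503 and 547 to 665 CPM, which do not overlap), while Ms4a1 stayed at or below 0.458 CPM. The CD8 T and NK cell list summed to 14.9 to 19.7 CPM in WT and 21.6 to 27.8 CPM in CD25 KO mice, with Klrb1c the only one of 6 tested members called and Ncr1 and Klra8 at 0 throughout. The lists of myeloid cells (26.4 to 44.0 and 37.3 to 44.1 CPM), dendritic cells (25.2 to 27.0 and 25.8 to 32.6 CPM), plasma cells (3.78 to 5.08 and 3.7 to 5.43 CPM) and erythroid cells and platelets (9.48 to 12.4 and 8.89 to 12.3 CPM) overlapped between the groups. The dendritic cell sum was nearly all Zbtb46 (22.7 to 24.5 CPM in WT and 23.1 to 29.8 CPM in CD25 KO mice). Immature thymocyte genes, with Rag1 at 0, summed to 114 to 119 CPM in WT and 134 to 162 CPM in CD25 KO mice. Nearly all of that sum was Themis (81.3 to 90.1 and 98.3 to 123.7 CPM) and Cd1d1 (25.3 to 30.8 and 31.6 to 35.2 CPM). These are bulk samples, so fewer cells of a kind and less RNA per cell cannot be told apart.

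Il2ra, the deleted gene (ENSMUSG00000026770.5, GRCm38 chr2:11642807-11693193, plus strand), had 521, 473, 513 and 522 CPM in the WT mice and 185, 202, 162 and 174 CPM in the CD25 KO mice. The 4 values of the CD25 KO mice lay under all 4 WT values, with a log2 fold change of -1.49 (SE 0.07, 2.81-fold lower, adjusted p = 1.39e-09, edgeR quasi-likelihood test with Benjamini-Hochberg adjustment, as for all adjusted p below). The counts cover the whole gene, and removal of 1 exon does not by itself remove reads over the others. Among the 18 tested genes that lay in or within 1 Mb of Il2ra, only Il2ra and Gm37881, a transcript annotated inside Il2ra, were called.

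Across the genome 1651 genes were differentially expressed (DE) at an adjusted p below 0.01, which is 9.45% of those tested. Of these, 1031 (5.9%) rose and 620 (3.55%) fell with the loss of CD25, and 1525 were protein-coding. A change of at least 2-fold was seen for 281 of the higher and 83 of the lower genes. The 4 CD25 KO and 4 WT mice did not overlap for 1621 of the DE genes, where 20.5% of all tested genes showed no overlap. The median log2 fold change over all tested genes was -0.01. Upper-quartile scaling moved that median to -0.04 and lowered the share of DE genes that were higher from 62.4% to 54.5%.

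The next set held DE protein-coding genes that the study does not name, with log2 CPM averaging at least 1 and groups that did not overlap. Its largest decreases were those of Gm15446 and Gm47283, which carry only model numbers in the gene annotation used here (GENCODE M21). Gm15446 (chr5:109923400-109943936) had 15.3, 13.5, 12.9 and 10.9 CPM in WT and 0.407, 0.56, 0.55 and 0.43 CPM in CD25 KO mice. All CD25 KO mice were far below all WT mice (log2 fold change -4.75, SE 0.17, 26.9-fold lower, adjusted p = 1.96e-10). Gm47283 is annotated on chrY:90784738-90816464, and the origin of its reads was not examined. The Y genes Ddx3y, Uty, Kdm5d and Eif2s3y did not exceed 0.07 CPM. Gm47283 had 9.55, 20.6, 18.9 and 15.04 CPM in WT and 0.407, 0.245, 4.11 and 0.369 CPM in CD25 KO mice (log2 fold change -3.68, SE 0.51, adjusted p = 0.000131). CD25 KO mouse 3 stood apart from the other 3 but still lay below the WT mice.

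Igfbp4, a secreted protein that binds insulin-like growth factors, was the next largest decrease in this set (chr11:99041244-99054392). It had 145, 158, 219.7 and 192 CPM in WT and 34.8, 25.7, 26.1 and 32.0 CPM in CD25 KO mice, a clear separation with a log2 fold change of -2.59 (SE 0.12, 6.02-fold lower, adjusted p = 2.97e-09). Stra6, the receptor for retinol-binding protein, had 5.75 to 7.39 CPM in WT and 1.19 to 1.88 CPM in CD25 KO mice (log2 fold change -2.14, SE 0.17). Ntn4, a netrin of the basement membrane, fell by 2.02 and Sorcs2, a sortilin-family receptor, fell by 1.88 on the log2 scale (SE 0.24 and 0.15). Lrrc32 encodes GARP, which holds latent TGF-beta on the Treg surface. It had 289, 250.1, 260.1 and 278 CPM in WT and 123, 111, 103 and 93.2 CPM in CD25 KO mice (log2 fold change -1.33, SE 0.07, 2.51-fold lower, adjusted p = 3.1e-08), again with no overlap. The enzymes Pcsk4 (a proprotein convertase) and Car12 (a carbonic anhydrase) had log2 fold changes of -1.67 and -1.48, the potassium channel Kcnj15 -1.65, the Rab regulator Tbc1d16 -1.63, and Fsd1l, Dnah7a and Tmem121b -1.57, -1.44 and -1.38.

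None of the 15 largest increases in the same set exceeded 10.1 CPM in any WT mouse, a level reached by Dnase1l3. Sostdc1, a secreted antagonist of BMP and Wnt ligands (chr12:36314139-36318452), had 6.09, 5.11, 4.92 and 3.97 CPM in WT and 18.9, 38.8, 25.3 and 23.9 CPM in CD25 KO mice. The groups were well apart, with CD25 KO mouse 2 highest (log2 fold change 2.41, SE 0.19, 5.31-fold higher, adjusted p = 6.58e-07). Npnt, the integrin ligand nephronectin, had 1.77, 1.53, 1.82 and 1.95 CPM in WT and 6.73, 12.2, 7.48 and 6.76 CPM in CD25 KO mice (log2 fold change 2.23, SE 0.20). Lgals3 (galectin-3), a lectin that binds cell surface glycans, had 3.08, 3.55, 3.27 and 3.86 CPM in WT and 10.6, 10.8, 16.5 and 16.6 CPM in CD25 KO mice (log2 fold change 1.99, SE 0.16). Dnase1l3, a secreted nuclease, had 10.1, 5.79, 4.72 and 4.09 CPM in WT and 24.2, 27.2, 25.9 and 25.4 CPM in CD25 KO mice (log2 fold change 2.05, SE 0.19). In all 3 the CD25 KO mice lay above every WT mouse. Plek (pleckstrin), a protein kinase C substrate, rose by 1.92 on the log2 scale (SE 0.15). The desmosomal cadherin Dsg2 (log2 fold change 2.67, SE 0.34), the guanylate cyclase Gucy2g (2.65, SE 0.45), the scaffold protein Dlg2 (2.46), the peptidase Ecel1 (2.36), the fibrillin Fbn2 (2.27), the calcium exchanger Slc24a3 (2.14), the netrin and RGM receptor Neo1 (2.11), the chondroitin sulfate enzyme Csgalnact1 (2.06), the Rac regulator Srgap3 (1.96) and the mucin Muc16 (1.92) completed the 15. Genes at lower levels, such as Ccl3, Lpar3 and Gzma, had larger fitted increases and are given with their lists. For Gucy2g, CD25 KO mouse 2 had 9.41 CPM and the other CD25 KO mice 2.42 to 2.77 CPM.

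**Figure D1:**
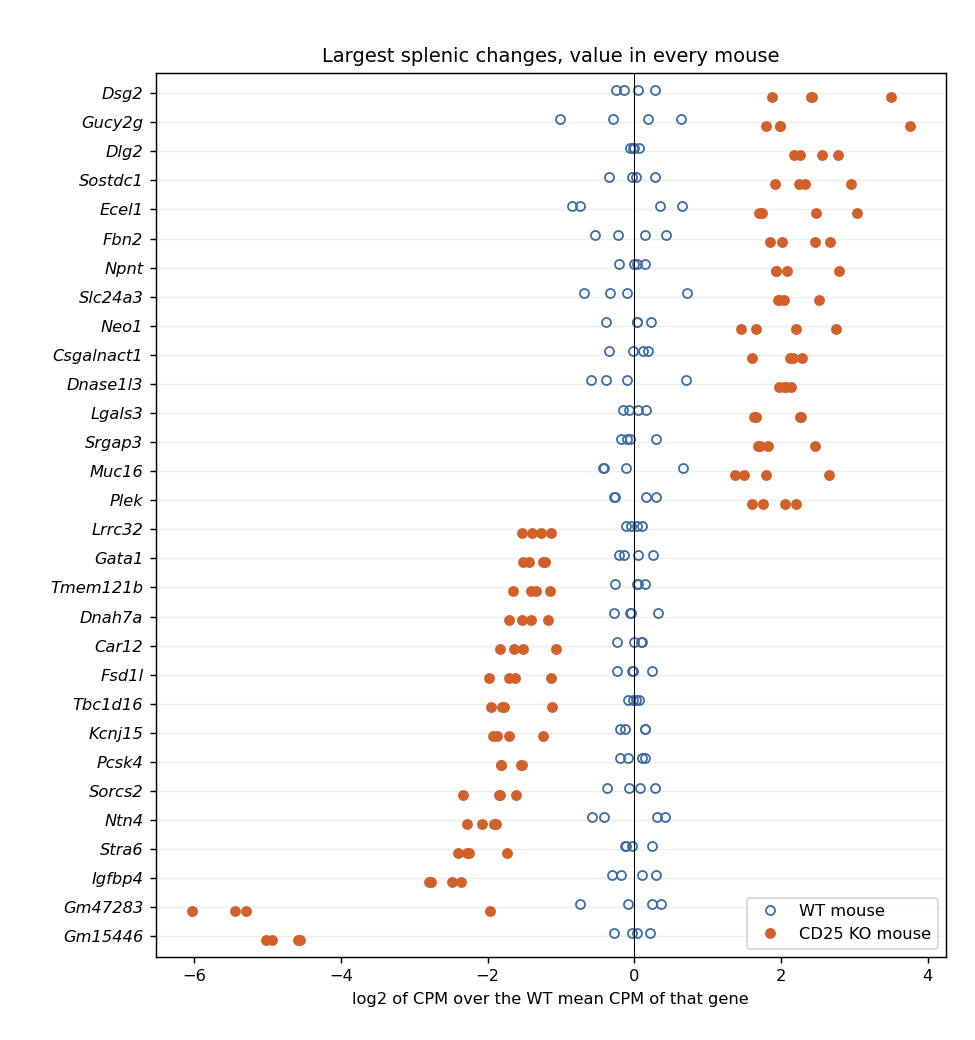
Each row is 1 of the 30 genes with the largest increases and decreases among protein-coding genes that the study does not name (average log2 CPM of at least 1), and each point is 1 mouse (open, WT; filled, CD25 KO), placed on the horizontal axis at the log2 of its CPM over the WT mean of that gene. Open and filled points do not overlap in any row, as the choice of genes required, and for Gm47283 CD25 KO mouse 3 lies nearer to WT than the other 3.

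To describe function, 47 lists of receptors, adhesion molecules, secreted factors, transcription factors, signaling, stress and metabolism genes and Treg states were used. They were written by hand with earlier results of these data known, and 27.2% of their 1679 tested members were DE, against 9.45% of all genes, so a share above that of all genes is partly a matter of choice. Among the classes, 34.9% of the 169 tested receptor genes, 35% of the 177 secreted factors, 30.6% of the 222 adhesion genes, 27.1% of the 269 transcription factors, 25.9% of the 428 signaling genes and 18.3% of the 426 stress and metabolism genes were DE. Where no member of a list was called in a direction, edgeR found 0 at the adjusted threshold, and the numbers at an unadjusted p below 0.05 and by DESeq2 are given beside it.

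**Figure D2:**
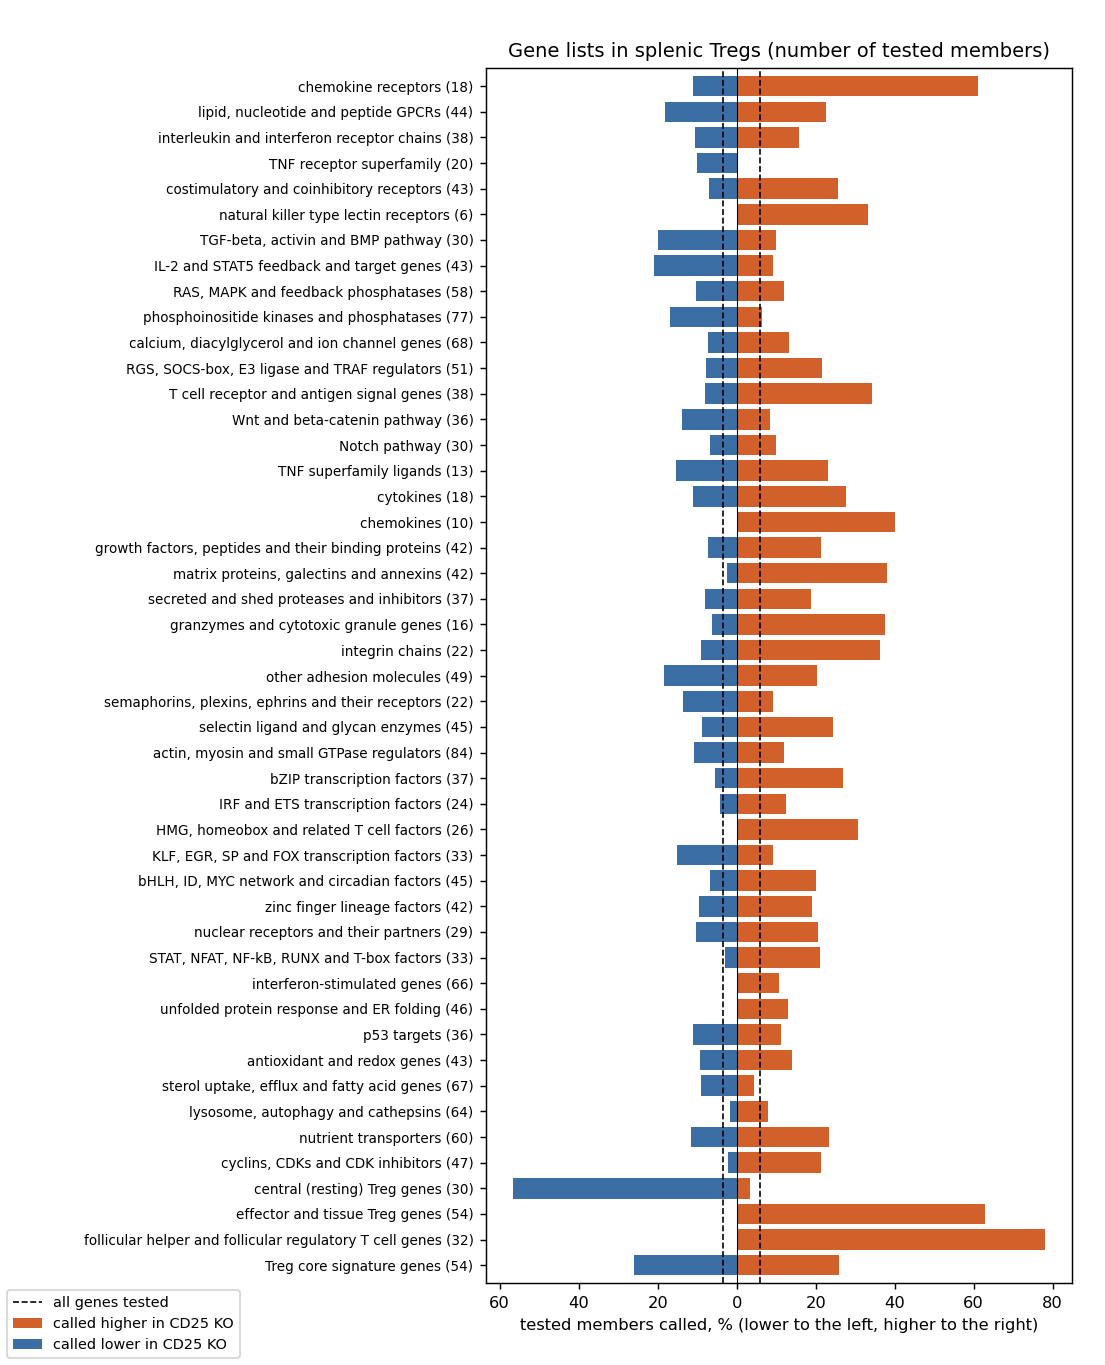
Bars give the percentage of tested members (number in parentheses) of each list that were higher (right) or lower (left) in CD25 KO splenic Tregs at an adjusted p below 0.01, and dashed lines give the same for all tested genes (5.9% and 3.55%). Chemokine receptors, the effector and the follicular lists extend farthest to the right, and the central Treg list farthest to the left.

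Chemokine receptors, which guide cells along chemokine gradients, were mostly higher. Of 18 tested, 11 rose and 2 fell, with a median log2 fold change of 0.63. Ccr2, the receptor for the inflammatory chemokine CCL2, had 42.8, 27.8, 28.0 and 37.5 CPM in WT and 73.2, 81.6, 83.9 and 93.6 CPM in CD25 KO mice (log2 fold change 1.29, SE 0.12, adjusted p = 2.33e-06). Cxcr5, which directs cells to B cell follicles, had 80.2, 73.0, 63.4 and 65.4 CPM in WT and 101, 124, 95.5 and 94.3 CPM in CD25 KO mice (log2 fold change 0.56, SE 0.09, adjusted p = 0.000399). For both genes all CD25 KO mice were above all WT mice. Cx3cr1, the fractalkine receptor, was called at low levels (0.305 to 0.715 CPM in WT, 0.945 to 2.93 CPM in CD25 KO mice), but its adjusted p was 0.0111 without WT mouse 3 and 0.0129 without WT mouse 4. The lymph node homing receptor Ccr7 and the mucosal receptor Ccr6 were the 2 that fell, with log2 fold changes of -0.60 and -0.41, and Ccr6 was not called without CD25 KO mouse 2 or 4 or WT mouse 1 or 4 (adjusted p = 0.0128, 0.0147, 0.0123 and 0.018).

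Other G protein-coupled receptors went both ways, with 10 higher and 8 lower of 44 tested and a median log2 fold change of 0.06. Lpar3, a receptor for lysophosphatidic acid, had 0, 0.249, 0.0414 and 0.0764 CPM in WT and 1.03, 1.64, 1.17 and 0.799 CPM in CD25 KO mice (adjusted p = 0.00015). The WT values were at or near the level of 3 counts, so no fold is given. Gpr15, a receptor for homing to the colon, rose by 0.85 and Gpr183, the oxysterol receptor EBI2, by 0.51 on the log2 scale. The Treg-associated receptor Gpr83 had 92.6, 94.5, 97.4 and 105 CPM in WT and 49.5, 59.6, 51.0 and 45.2 CPM in CD25 KO mice, without overlap (log2 fold change -0.92, SE 0.07, adjusted p = 7.13e-07). The adhesion receptor Adgrg1 (GPR56) and Gpr34 had log2 fold changes of -1.25 and -0.85.

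Of 38 interleukin and interferon receptor chains, 6 rose and 4 fell. Il1r2 encodes the decoy receptor that binds IL-1 without signaling. It had 37.9, 29.4, 24.3 and 27.6 CPM in WT and 90.0, 125.1, 91.9 and 86.5 CPM in CD25 KO mice (log2 fold change 1.72, SE 0.13, 3.3-fold higher, adjusted p = 4.71e-07). Even the lowest CD25 KO mouse was more than any WT mouse. Il1rl2, the IL-36 receptor, rose by 0.65, and Il6ra, the IL-6 receptor chain, had a log2 fold change of -0.46. Of the 20 tested members of the TNF receptor superfamily 2 fell and none rose (6 were higher at an unadjusted p below 0.05, and 3 by DESeq2). That is 10% of the list, near the 9.45% of all genes. Relt and Tnfrsf25 (DR3, the TL1A receptor) had log2 fold changes of -0.47 and -0.45 (SE 0.07 and 0.06).

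Among 43 costimulatory and coinhibitory receptors, 11 rose and 3 fell, and the 3 largest increases were those of Havcr2, Lag3 and Tigit, receptors that restrain T cells. Lag3, which binds MHC class II, had 34.6, 39.6, 37.4 and 24.7 CPM in WT and 91.6, 141, 109.8 and 95.4 CPM in CD25 KO mice (log2 fold change 1.68, SE 0.14, 3.21-fold higher, adjusted p = 9.29e-07). The CD25 KO mice were all above the WT mice. Havcr2 (TIM-3), Tigit and Pdcd1 (PD-1) rose by 1.77, 1.28 and 0.78, and Crtam, which binds nectin-like molecules, by 1.24. Cd72 and Cd86 had log2 fold changes of -0.77 and -0.67. Of 6 natural killer type lectin receptors Klrb1c and Klrg1 rose, by 1.90 and 0.77, and none fell (0 at an unadjusted p below 0.05 and 0 by DESeq2). Klrb1c had an adjusted p of 0.0117 without WT mouse 3, 0.0129 without WT mouse 4 and 0.0133 by DESeq2. Klrb1c is also a marker in the CD8 T and NK cell list, whose summed level was higher in CD25 KO mice, and its part in these values was not tested.

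TGF-beta, activin and BMP pathway genes had 3 higher and 6 lower members of 30 tested. The type I activin-like receptor Acvr1c, at too low a level for the set of largest changes, had 1.84, 2.7, 2.69 and 2.75 CPM in WT and 0.259, 0.245, 0.33 and 0.307 CPM in CD25 KO mice (log2 fold change -3.11), which do not overlap. The endothelial-type receptor Acvrl1 (ALK1) had a log2 fold change of -0.92, while the BMP receptor Bmpr1a rose by 0.78, and Acvrl1 was not called without WT mouse 3 (adjusted p = 0.0111). Lrrc32, described above, is also among the 6.

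Integrins, the paired receptors for matrix and for counter-receptors on cells, had 8 higher and 2 lower chains of 22 tested. Itgb1, the shared beta1 chain, had 598, 693, 616 and 618 CPM in WT and 888, 1135, 995 and 1213 CPM in CD25 KO mice (log2 fold change 0.74, SE 0.08, adjusted p = 1.77e-05). The alpha chains that pair with it went in different directions. The laminin-binding Itga7 rose by 1.02, whereas the fibronectin receptor Itga5 and the laminin receptor Itga6 had log2 fold changes of -0.59 and -0.34. The beta chains Itgb5 and Itgb8, partners of Itgav (0.41), rose by 1.06 and 0.59. The count of 8 became 5 without WT mouse 3 and 6 when any other mouse was left out.

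Of 49 other adhesion molecules 10 rose and 9 fell (5 without WT mouse 2 or 3). The junctional molecule Jaml had 6.36, 5.72, 7.95 and 5.92 CPM in WT and 2.44, 2.59, 3.26 and 3.01 CPM in CD25 KO mice (log2 fold change -1.19, SE 0.15). Pecam1, which acts in leukocyte transmigration, had a log2 fold change of -0.37. Alcam (a ligand of CD6) had 27.0, 24.2, 23.3 and 21.4 CPM in WT and 40.2, 41.7, 41.5 and 45.5 CPM in CD25 KO mice, and Nectin1 rose by 1.32 on the log2 scale. The groups did not overlap for Jaml or Alcam. Emp1, a membrane protein, had 2.86, 12.3, 2.28 and 8.67 CPM in WT and 10.8, 31.9, 17.7 and 21.4 CPM in CD25 KO mice. It was called (log2 fold change 1.64, SE 0.39, adjusted p = 0.00852), but the groups overlapped, DESeq2 gave an adjusted p of 0.0496, and leaving out each mouse gave 0.00182 to 0.0289.

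Glycan-modifying enzymes, several of which build selectin ligands, had 11 higher and 4 lower members of 45 tested (2 lower without WT mouse 3). Gcnt1, which makes the core 2 branch of O-glycans, had 15.98, 16.19, 15.44 and 15.96 CPM in WT and 25.7, 25.5, 31.5 and 31.0 CPM in CD25 KO mice (log2 fold change 0.84, SE 0.08, adjusted p = 4.88e-06). The fucosyltransferase Fut7 and the sulfotransferases Chst2 and Chst11 rose by 0.66, 0.66 and 0.88. Galnt10 and Mgat4a had log2 fold changes of -0.68 and -0.37. Among 22 semaphorins, plexins, ephrins and receptors, 2 rose and 3 fell, and 1 rose without CD25 KO mouse 3 or 4 or WT mouse 2 or 4. Plxnb2 rose by 1.12 and Plxna1 and Sema4a had log2 fold changes of -0.69 and -0.55. Actin, myosin and small GTPase regulators showed 10 higher and 9 lower of 84, with the actin-bundling Palld at 1.02 and the myosin Myo6 at -0.92.

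Secreted cytokines included 5 that rose and 2 that fell of 18 tested. Il21, a cytokine of follicular helper T cells that acts on B cells, had 4.4, 4.19, 4.14 and 2.41 CPM in WT and 8.76, 14.8, 10.2 and 9.99 CPM in CD25 KO mice (log2 fold change 1.53, SE 0.19, adjusted p = 3.93e-05). Csf1, the macrophage growth factor, had 48.9, 42.7, 46.4 and 53.5 CPM in WT and 96.0, 86.3, 74.8 and 82.1 CPM in CD25 KO mice (log2 fold change 0.82, SE 0.08, adjusted p = 3.84e-06). The dendritic cell growth factor Flt3l had 42.7, 50.1, 46.0 and 41.4 CPM in WT and 29.2, 23.0, 32.4 and 28.5 CPM in CD25 KO mice (log2 fold change -0.67, SE 0.09). None of the 3 overlapped between the groups. The study's text names Il10, Il4 and Ifng, which rose by 2.02, 1.31 and 1.25. Among TNF superfamily ligands, Cd40lg, Tnfsf13b (BAFF) and Tnfsf8 rose by 0.61, 0.62 and 0.35, of which 1 was called without WT mouse 2, 3 or 4 and Tnfsf13b was not called without CD25 KO mouse 2 or 3 (adjusted p = 0.0141 and 0.0102), and Lta and Tnf had log2 fold changes of -1.15 and -0.40.

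Of 10 chemokines 4 rose and none fell (0 at an unadjusted p below 0.05 and 0 by DESeq2), with a median log2 fold change of 1.03. Ccl5, a chemokine of activated T cells, had 13.77, 16.94, 15.48 and 16.95 CPM in WT and 36.2, 25.2, 38.7 and 44.5 CPM in CD25 KO mice (log2 fold change 1.20, SE 0.13, adjusted p = 1.71e-05). Cxcl10, a CXCR3 ligand, had 11.7, 14.3, 14.0 and 9.81 CPM in WT and 26.0, 26.6, 27.2 and 25.4 CPM in CD25 KO mice (log2 fold change 1.08, SE 0.10). Both were higher in every CD25 KO mouse. Ccl4 was at 0.15 to 0.573 CPM in WT and 1.47 to 3.6 CPM in CD25 KO mice. Ccl3 was at 0 to 0.191 CPM in WT, at the level of a few counts, and at 0.525 to 3.63 CPM in CD25 KO mice (adjusted p = 0.00014).

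Granzymes and other cytotoxic granule genes had 6 higher and 1 lower member of 16 tested. Nkg7, a granule membrane protein, had 9.85, 10.7, 10.2 and 12.6 CPM in WT and 30.0, 27.2, 33.4 and 43.8 CPM in CD25 KO mice (log2 fold change 1.64, SE 0.13, adjusted p = 6.6e-07). Gzma was at 0.142 to 0.191 CPM in WT and 0.735 to 2.71 CPM in CD25 KO mice, and Gzmk at 0.124 to 0.533 and 0.922 to 2.57 CPM. All CD25 KO mice were above all WT mice for the 3 genes, as for Gzmb (3.02 to 5.64 and 36.8 to 55.6 CPM), which the study names. Ctsw, a cathepsin of cytotoxic cells, had a log2 fold change of -0.71. The CD8 T and NK cell markers stood 14.9 to 19.7 and 21.6 to 27.8 CPM in sum beside these genes and beside Ccl3, Ccl4 and Ccl5, and their part was not tested. Within the sum, Eomes had 2.29 to 7.42 CPM in WT and 6.67 to 12.8 CPM in CD25 KO mice. Klrb1c had 0.355 to 2.52 and 2.93 to 5.6 CPM, and Cd8a 0.916 to 1.53 and 1.63 to 2.67 CPM. Cd8b1 had 6.64 to 7.85 and 6.47 to 8.05 CPM, and Tyrobp 1.57 to 2.63 and 1.47 to 2.07 CPM.

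Growth factors and their binding proteins had 9 higher and 3 lower members of 42 tested. Angptl2, a secreted angiopoietin-like protein, had 32.0, 25.3, 25.9 and 26.8 CPM in WT and 55.2, 63.1, 55.0 and 56.9 CPM in CD25 KO mice (log2 fold change 1.07, SE 0.08, adjusted p = 3.24e-07). Fgf2 and the epidermal growth factor receptor ligand Areg rose by 1.28 and 1.16. Sfrp2, a Wnt antagonist, had a log2 fold change of -1.17, opposite to Sostdc1. Matrix proteins, galectins and annexins rose in 16 of 42 and fell in 1 (2 without CD25 KO mouse 1), with a median log2 fold change of 0.32. The calcium-binding S100a6 had 28.3, 27.7, 27.9 and 31.7 CPM in WT and 75.5, 75.1, 79.9 and 80.5 CPM in CD25 KO mice (log2 fold change 1.43, SE 0.06, adjusted p = 9.03e-10). The membrane-binding Anxa2 had 25.2, 32.3, 29.5 and 29.4 CPM in WT and 60.3, 71.8, 85.0 and 78.9 CPM in CD25 KO mice (log2 fold change 1.35, SE 0.10), and its partner S100a10 rose by 0.54. The groups did not overlap for S100a6 or Anxa2. Tnc (tenascin C) and Thbs1 (thrombospondin 1) rose by 1.56 and 1.33, and Ecm1 had a log2 fold change of -0.95. Of 37 secreted proteases and inhibitors 7 rose, such as Mmp14 (1.47) and the serpin Serpina3f (1.10), and 3 fell, among them Mmp11 with a log2 fold change of -1.03.

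Of 269 tested transcription factors 54 rose and 19 fell. Basic leucine zipper factors had 10 higher and 2 lower members of 37 tested. Cebpa, a myeloid factor that is also in the follicular list used here, had 17.2, 8.88, 9.35 and 9.16 CPM in WT and 30.8, 51.9, 28.4 and 29.5 CPM in CD25 KO mice (log2 fold change 1.66, SE 0.21, adjusted p = 6.14e-05). WT mouse 1 and CD25 KO mouse 2 were high within their groups, which did not overlap. The AP-1 factors Batf and Fosl2, which act after antigen receptor signals, rose by 0.78 and 0.88. Bach2, a repressor that restrains effector differentiation, had 122, 144, 165 and 154 CPM in WT and 94.0, 83.1, 90.4 and 104 CPM in CD25 KO mice (log2 fold change -0.65, SE 0.08, adjusted p = 5.72e-05), again without overlap.

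Basic helix-loop-helix and related factors had 9 higher and 3 lower members of 45. Epas1 (HIF-2alpha), a subunit of the hypoxia factor, had 16.8, 11.1, 10.3 and 17.7 CPM in WT and 40.2, 40.0, 35.2 and 38.9 CPM in CD25 KO mice (log2 fold change 1.46, SE 0.13, adjusted p = 2.76e-06). Bhlhe40, a repressor also known as DEC1, had 101, 82.9, 70.5 and 81.3 CPM in WT and 157, 203, 186 and 164 CPM in CD25 KO mice (log2 fold change 1.08, SE 0.10). For both factors the groups were apart. Hif1a, the other hypoxia factor subunit, and Id2, an inhibitor of E proteins, rose by 0.74 and 0.90, and Ascl2, which induces Cxcr5 in follicular helper cells, by 1.45. Myc had a log2 fold change of -1.02.

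The erythroid and mast cell factor Gata1 showed the largest decrease among the 42 zinc finger lineage factors, of which 8 rose and 4 fell. It had 17.5, 18.3, 23.9 and 20.8 CPM in WT and 8.65, 7.42, 7.0 and 8.51 CPM in CD25 KO mice (log2 fold change -1.35, SE 0.11, 2.54-fold lower, adjusted p = 9.29e-07). The erythroid and platelet markers beside it overlapped between the groups, at 9.48 to 12.4 and 8.89 to 12.3 CPM in sum. Bcl6, the factor of follicular cells, had 49.2, 53.4, 47.9 and 44.1 CPM in WT and 90.2, 90.8, 82.7 and 81.9 CPM in CD25 KO mice (log2 fold change 0.83, SE 0.06, adjusted p = 6.14e-07), and Prdm1 (Blimp-1), which opposes Bcl6 in other lymphocytes, rose as well, by 1.00. Foxp3 had 316, 335, 311 and 317 CPM in WT and 228, 219.7, 231 and 198 CPM in CD25 KO mice (log2 fold change -0.55, SE 0.06).

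HMG, homeobox and related T cell factors had 8 higher and none lower of 26 tested (5 were lower at an unadjusted p below 0.05, and 0 by DESeq2). Tox2 had 33.7, 28.1, 24.2 and 24.9 CPM in WT and 58.8, 60.1, 59.1 and 55.5 CPM in CD25 KO mice (log2 fold change 1.07, SE 0.08). Pou2af1, the coactivator OCA-B, had 8.35, 7.42, 5.88 and 5.88 CPM in WT and 19.1, 26.3, 16.1 and 19.5 CPM in CD25 KO mice (log2 fold change 1.55, SE 0.15). The CD25 KO mice were higher throughout. Pou2af1 is strongly expressed by B cells, and the B cell markers Ighm, Cd22 and Pax5 rose by 0.44, 0.94 and 1.04 beside it (Pax5 with an adjusted p of 0.0154 without WT mouse 3 and 0.0131 without WT mouse 4), while Cd79a had a log2 fold change of -0.45 that did not pass (adjusted p = 0.032). Zeb2, a factor of terminal effector cells, rose by 1.37. The count of 8 became 5 without CD25 KO mouse 2 and without WT mouse 2, 3 or 4.

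Of 29 nuclear receptors and partners 6 rose and 3 fell. Vdr, the vitamin D receptor, had 4.25, 4.01, 2.28 and 1.68 CPM in WT and 10.2, 12.9, 9.17 and 9.4 CPM in CD25 KO mice (log2 fold change 1.76, SE 0.22, adjusted p = 4.54e-05). Pparg, which marks fat-resident Tregs, was at 0.455 to 0.923 CPM in WT and 2.24 to 3.29 CPM in CD25 KO mice (log2 fold change 1.90, SE 0.23). Both were separated between the groups. The thyroid hormone receptor Thra, the estrogen receptor Esr1 and the retinoic acid receptor Rara had log2 fold changes of -0.58, -0.40 and -0.34. The 6 increases became 2 without WT mouse 2 or 3 and 3 without WT mouse 1 or CD25 KO mouse 3 or 4. In the KLF, EGR, SP and FOX list, Klf12, Egr2 and Egr1 rose by 1.10, 0.65 and 0.59 and Foxp1, which maintains quiescence, had a log2 fold change of -0.35. Its 5 decreases became 1 without CD25 KO mouse 2 or 3 or WT mouse 3 or 4, and 2 without CD25 KO mouse 1 or WT mouse 2. Runx2, Tbx21 (T-bet), Nfatc1 and Nfkb2 rose by 0.66, 1.00, 0.39 and 0.37 among 7 increases of 33 STAT, NFAT, NF-kB, RUNX and T-box genes.

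**Figure D3:**
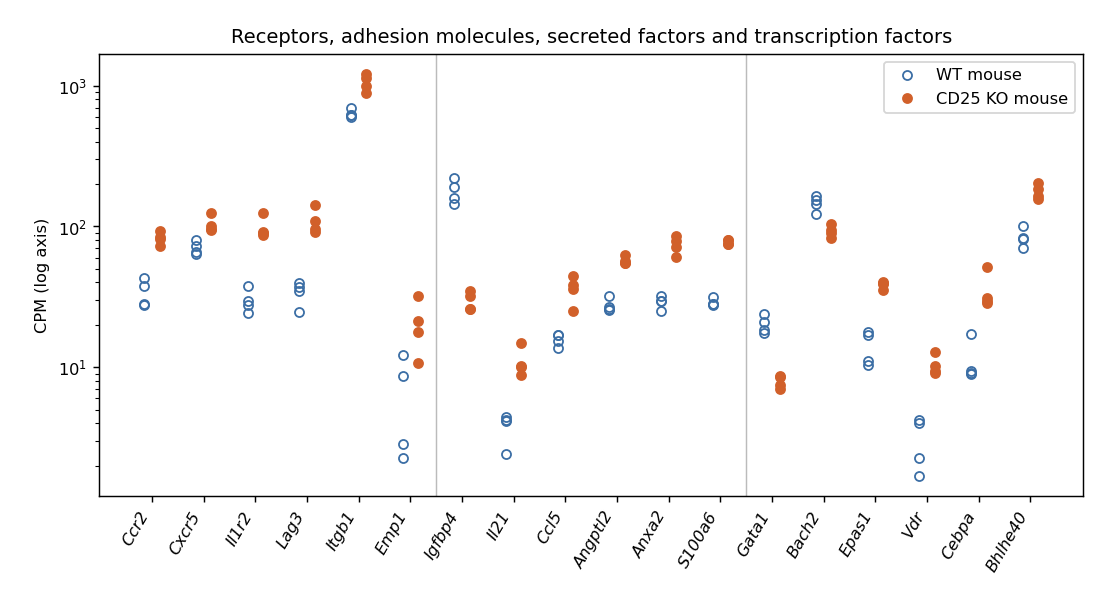
CPM on a log axis in each of the 4 WT and 4 CD25 KO mice for surface proteins (Ccr2, Cxcr5, Il1r2, Lag3, Itgb1, Emp1), secreted and calcium-binding proteins (Igfbp4, Il21, Ccl5, Angptl2, Anxa2, S100a6) and transcription factors (Gata1, Bach2, Epas1, Vdr, Cebpa, Bhlhe40); each point is 1 mouse. The groups are apart for every gene except Emp1, and Igfbp4, Gata1 and Bach2 are the 3 that are lower in CD25 KO mice.

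IL-2 and STAT5 feedback and target genes had 9 lower and 4 higher members of 43 tested. The feedback inhibitors Socs2, Cish and Socs1 had log2 fold changes of -0.98, -0.68 and -0.45, and Ccnd2 (cyclin D2) had 698, 808, 838 and 839 CPM in WT and 478, 613, 484 and 534 CPM in CD25 KO mice (log2 fold change -0.59, SE 0.08). Lta (lymphotoxin alpha) had 36.5, 34.0, 30.7 and 33.1 CPM in WT and 16.6, 14.8, 14.6 and 14.7 CPM in CD25 KO mice (log2 fold change -1.15, SE 0.07, 2.22-fold lower, adjusted p = 1.19e-07). No CD25 KO mouse reached a WT mouse for either gene. STAT5 binds DNA at TTCNNNGAA, where N is any base. RefSeq promoter windows of GRCm38.p6, from 250 bases before to 50 after each start, were searched for these letters, which read the same on both strands. They occurred in 9.24% of the 617 windows of lower genes, 7.09% of the 1015 windows of higher genes and 6.88% of the 13818 windows of tested genes (8.3% of all 32851 windows). These windows covered 450 of 620 lower, 793 of 1031 higher and 10900 of 17463 tested genes, some genes with several windows. A match is a description and not a bound site. The 250 bases before the start of Lta, a decreased gene with 2 matches, are shown with the matches in capitals. The gene was picked after the matches were seen, and the stretch lies at chr17:35205352-35205601 and is written 5' to 3' on the minus strand, that of the gene.
Lta: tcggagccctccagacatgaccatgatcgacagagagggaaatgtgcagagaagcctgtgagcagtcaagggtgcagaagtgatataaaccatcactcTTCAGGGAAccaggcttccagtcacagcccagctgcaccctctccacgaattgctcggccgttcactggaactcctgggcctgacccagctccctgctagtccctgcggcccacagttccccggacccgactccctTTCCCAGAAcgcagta

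Antigen receptor signal genes had 13 higher and 3 lower members of 38 tested, most of them changed by little. Malt1, the paracaspase that links the T cell receptor to NF-kB, had 180.1, 156, 159 and 149 CPM in WT and 242, 322, 305 and 257 CPM in CD25 KO mice, without overlap (log2 fold change 0.80, SE 0.08, adjusted p = 8.35e-06). The proximal kinase Zap70 rose by 0.31, while the kinase Txk and the adaptor Grap2 had log2 fold changes of -0.51 and -0.44. The count of 13 fell to 7 without CD25 KO mouse 4 or without WT mouse 2 or 3, and to 8 without CD25 KO mouse 1 or 2 or WT mouse 1 or 4. Phosphoinositide genes had 13 lower and 5 higher members of 77 (9 higher without CD25 KO mouse 1). The PI3K regulators Pik3ip1 and Pik3r3 had log2 fold changes of -0.37 and -0.85 and Pik3ap1, an adaptor of B and myeloid cells, rose by 1.16.

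RAS and MAPK genes had 7 higher and 6 lower members of 58. The MAPK phosphatases Dusp16 and Dusp14 rose by 0.96 and 0.95 (SE 0.13 and 0.14), while Dusp4 and the ERK antagonist Spry1 had log2 fold changes of -0.40 and -0.43. Among 51 RGS, E3 ligase and TRAF regulators 11 rose and 4 fell (2 without WT mouse 2 or 4). The anergy-associated ligase Rnf128 (GRAIL) rose by 0.89, the NF-kB inhibitor Tnfaip3 (A20) by 0.58 and the adaptor Themis2 by 1.58, and the ligases Peli2 and Nedd4l had log2 fold changes of -1.08 and -0.87. Calcium and ion channel genes rose in 9 and fell in 5 of 68, with the voltage-gated calcium channel Cacna1d at 1.47 and the calcineurin regulator Rcan3 at -0.59. Without WT mouse 2 or 3 the 9 became 5, and the 5 decreases became 2 without WT mouse 3 and 3 without WT mouse 2 or CD25 KO mouse 2. In the Wnt list 3 of 36 rose (1 without CD25 KO mouse 2 or 4 or WT mouse 1, 2 or 3) and 5 fell, among them Znrf3, a ligase that removes Wnt receptors, which had 54.0, 52.1, 62.6 and 56.2 CPM in WT and 35.8, 32.0, 30.8 and 31.7 CPM in CD25 KO mice (log2 fold change -0.79, SE 0.07). In the Notch list 3 of 30 rose (1 without CD25 KO mouse 2 or WT mouse 2, 3 or 4), with the Notch target Hey1 at 1.59, and 2 fell (4 without CD25 KO mouse 1), Notch2 and Lfng at -0.35 each.

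Stress and metabolic lists had the lowest share of DE members among the classes, 18.3%. Of 66 interferon-stimulated genes 7 rose (4 without WT mouse 4) and none fell (4 at an unadjusted p below 0.05, and 1 by DESeq2), with Ifitm2 at 1.09 and the others at 0.25 to 0.41. The unfolded protein response list had 6 higher and none lower of 46 (4 lower at an unadjusted p below 0.05, and 0 by DESeq2), with the ER stress sensor Atf6 at 0.54, and the 6 became 2 without WT mouse 2 or 4 and 3 without WT mouse 3 or CD25 KO mouse 2. In p53 targets 4 rose and 4 fell of 36. Lysosomal genes rose in 5 and fell in 1 of 64, a share of 9.38% beside the 9.45% of all genes. Sterol and fatty acid genes rose in 3 of 67 (0 without WT mouse 2, and 1 without CD25 KO mouse 4 or WT mouse 3 or 4) and fell in 6. The shares called were 10.6% of the interferon-stimulated, 13% of the unfolded protein response and 13.4% of the sterol and fatty acid genes, beside the same 9.45%.

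Of 43 redox genes 6 rose (3 without CD25 KO mouse 4 or WT mouse 2) and 4 fell. Cybb, the catalytic subunit of the phagocyte NADPH oxidase, had 38.2, 38.2, 34.0 and 32.2 CPM in WT and 63.2, 89.4, 66.3 and 70.8 CPM in CD25 KO mice (log2 fold change 1.02, SE 0.10, adjusted p = 2.96e-06). The summed myeloid markers, 26.4 to 44.0 and 37.3 to 44.1 CPM, overlapped beside it, although Lyz2 rose by 1.03. Ncf1, another subunit of the oxidase, had a log2 fold change of -0.92. The glutathione transferase Gsto1 had 15.01, 15.48, 17.88 and 19.01 CPM in WT and 7.91, 7.98, 7.52 and 8.88 CPM in CD25 KO mice (log2 fold change -1.06, SE 0.10), and Gsta4 and the aldehyde dehydrogenase Aldh2 (adjusted p = 1.45e-05) fell too, the former with a log2 fold change of -1.20. The groups did not overlap for Cybb or Gsto1. Nutrient transporters rose in 14 and fell in 7 of 60. Slc17a9, the vesicular ATP transporter, had 51.2, 52.6, 57.1 and 53.8 CPM in WT and 27.4, 24.6, 28.7 and 27.7 CPM in CD25 KO mice (log2 fold change -0.99, SE 0.06, adjusted p = 1.19e-07), and the large amino acid transporter Slc7a5 had a log2 fold change of -0.41. The 14 became 8 without WT mouse 4 and 9 without WT mouse 2 or 3, and the 7 became 4 without CD25 KO mouse 3 or WT mouse 3.

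Of 47 cyclins, CDKs and CDK inhibitors 10 rose, including the mitotic cyclins Ccna2 (0.94), Ccnb1 (1.02) and Ccnb2 (1.20), the kinase Cdk1 (0.83) and the S phase repressor E2f8 (1.31), and Ccnd2 alone fell, or 2 genes without CD25 KO mouse 3. The CDK4 and CDK6 inhibitor Cdkn2c had 9.18, 8.59, 8.11 and 8.93 CPM in WT and 17.1, 18.3, 16.5 and 16.2 CPM in CD25 KO mice, so an inhibitor rose with the cyclins (log2 fold change 0.97, SE 0.08). When the spread was estimated with the thymic samples in the same fit, 1 of the 10 increases was called.

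Histone genes were examined after their values had been seen. Replication-dependent histone genes are expressed in S phase, and their messages end in a stem-loop rather than a poly(A) tail, so they are measured in RNA libraries made by rRNA depletion, as here. Of 53 tested genes of the Hist1 to Hist4 clusters, 46 rose and none fell (0 at an unadjusted p below 0.05), with log2 fold changes of 0.13 to 1.63 and a median of 0.88. Summed over the tested genes, they took 1076, 1254, 1226 and 1239 CPM in WT and 1759.9, 1966, 1923 and 1976 CPM in CD25 KO mice. The lowest CD25 KO mouse was above the highest WT mouse. The increase was seen in each histone type, with 5 of 5 H1, 11 of 13 H2A, 10 of 13 H2B, 9 of 9 H3 and 11 of 13 H4 genes called. Most of the called genes lay in the Hist1 cluster on chr13:21715763-23764406, where 44 of 45 genes rose (median 0.98), against 2 of 4 Hist2 genes, and the 3 Hist3 genes and 1 Hist4 gene were not called. Chromosome 13 had 16.8% of its 590 tested genes DE, and 10.1% of 545 without the Hist1 genes, near the 9.45% of all genes. Hist1h1b, a linker histone, had 13.6, 17.7, 18.2 and 17.6 CPM in WT and 35.1, 43.0, 47.6 and 49.2 CPM in CD25 KO mice (log2 fold change 1.38, SE 0.11, adjusted p = 6.17e-07). Copies of H2A, H2B, H3 and H4 are nearly identical, so how reads were divided among them is uncertain, which the sums avoid, and how reads that match several copies were counted is not given in the sources used here. In the fit of all 18 samples 1 histone gene was called, and the cause was not tested.

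**Figure D4:**
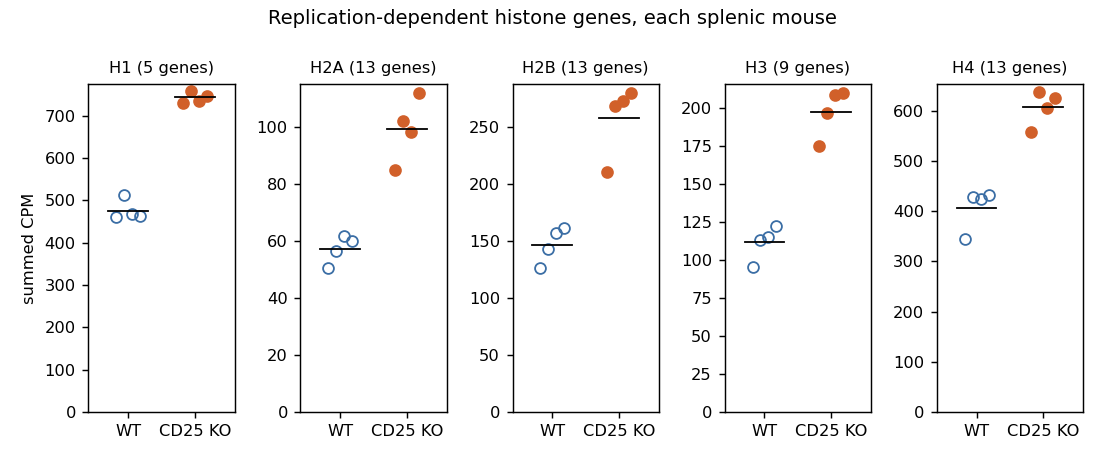
Summed CPM of the tested histone genes of each type in each mouse, on axes that start at 0, with black lines at the group means. For H1, H2A, H2B, H3 and H4 alike the 4 CD25 KO mice lie above the 4 WT mice.

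Many replication-dependent histone promoters hold CCAAT boxes. CCAAT, searched on both strands (ATTGG on the other strand), occurred in 81.2% of the 48 windows of tested histone genes, of which 47 of 53 had a window, against 37.4% of the 13818 windows of tested genes and 37.4% of all 32851. It occurred in 39.4% of windows of higher genes and 38.4% of windows of lower genes. Of each of H1, H2A and H3, the called Hist1 gene with the largest increase and a single promoter window was picked, with the values seen. The 250 bases before the RefSeq start of these 3 genes, with 2 or 3 matches each, are shown with CCAAT or ATTGG in capitals. They lie at chr13:21780626-21780875 (minus strand, Hist1h1b), chr13:22035644-22035893 (minus strand, Hist1h2ah) and chr13:23752095-23752344 (plus strand, Hist1h3b), and for the last 2 the RefSeq start is not that of GENCODE. Hist1h2ah and Hist1h3b rose by 1.63 and 1.38 on the log2 scale (SE 0.27 and 0.15).
Hist1h1b: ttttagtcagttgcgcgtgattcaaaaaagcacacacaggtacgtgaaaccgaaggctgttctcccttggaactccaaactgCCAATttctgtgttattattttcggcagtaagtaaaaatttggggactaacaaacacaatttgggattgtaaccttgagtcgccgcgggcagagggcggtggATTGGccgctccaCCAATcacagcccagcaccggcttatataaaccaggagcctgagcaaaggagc
Hist1h2ah: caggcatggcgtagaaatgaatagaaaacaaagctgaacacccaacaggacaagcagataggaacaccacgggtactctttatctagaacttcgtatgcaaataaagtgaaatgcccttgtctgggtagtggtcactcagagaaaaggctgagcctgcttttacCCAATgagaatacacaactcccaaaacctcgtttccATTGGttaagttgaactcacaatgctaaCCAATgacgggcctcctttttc
Hist1h3b: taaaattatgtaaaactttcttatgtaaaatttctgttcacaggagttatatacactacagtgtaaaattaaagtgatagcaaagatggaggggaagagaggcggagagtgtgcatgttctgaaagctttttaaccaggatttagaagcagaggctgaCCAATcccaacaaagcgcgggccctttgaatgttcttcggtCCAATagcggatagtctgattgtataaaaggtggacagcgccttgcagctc

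Among the classes, the Treg states had the highest share of DE members, 64.4% of 146. Among 30 tested central Treg genes 17 fell and 1 rose (Tcf7, 0.24, adjusted p = 0.00706, and 0.011 to 0.0233 when any mouse but CD25 KO mouse 3 was left out), with a median log2 fold change of -0.34. Treml2, a member of that list, had 83.2, 98.2, 104 and 97.4 CPM in WT and 51.9, 40.6, 41.5 and 46.2 CPM in CD25 KO mice (log2 fold change -1.09, SE 0.08, adjusted p = 5.44e-07), which did not overlap. Others that fell were Igfbp4, Bach2 and Gpr83, described above, Nsg2 (-0.49) and Actn1 (-0.52). Effector and tissue Treg genes rose in 34 of 54 and fell in none (0 at an unadjusted p below 0.05 and 0 by DESeq2), with a median of 0.65. Areg (1.16), Id2, Bhlhe40, Anxa2, S100a6, Lag3 and Lgals3 were among them. Follicular helper and follicular regulatory genes rose in 25 of 32 and fell in none (1 at an unadjusted p below 0.05, and 0 by DESeq2), with a median of 0.74. The effector and follicular lists share 4 genes. Without these, 21 of 28 follicular genes (75%) rose, with a median of 0.64, and 30 of 50 effector genes (60%), with a median of 0.53. The state lists too were written with earlier results of these data known, so all these shares are partly a matter of choice.

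The follicular list joined receptors, factors and secreted products. Cxcr5, Il1r2 and S1pr2 (0.59), a receptor that keeps cells in follicles, rose on the receptor side. Bcl6, Tox2, Pou2af1, Cebpa, Ascl2 and Tox (0.31) rose among transcription regulators, and Il21, Sostdc1 and Angptl2 among secreted products, with the signaling adaptor Sh2d1a (SAP) at 0.50. In CD25 KO mouse 2 several of these were highest, with 125.1 CPM of Il1r2, 51.9 CPM of Cebpa and 14.8 CPM of Il21. Without CD25 KO mouse 2, or any other mouse, between 23 and 26 of the list rose. B cell transcripts stood at 445 to 559 CPM in WT and 608 to 734 CPM in CD25 KO mice beside these genes, and their part was not tested. Treg core signature genes went both ways, with 14 higher and 14 lower of 54 (median 0.10). The lower ones included Il2ra, Lrrc32, Gpr83, Ecm1, Foxp3 and Ikzf4 (Eos, -0.30), and the higher ones Ikzf2 (Helios, 0.37), Nfkb2, Itgav, Itgb8 and Ccr8 (0.70). Of these 54 genes 17 are also in the effector list.

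**Figure D5:**
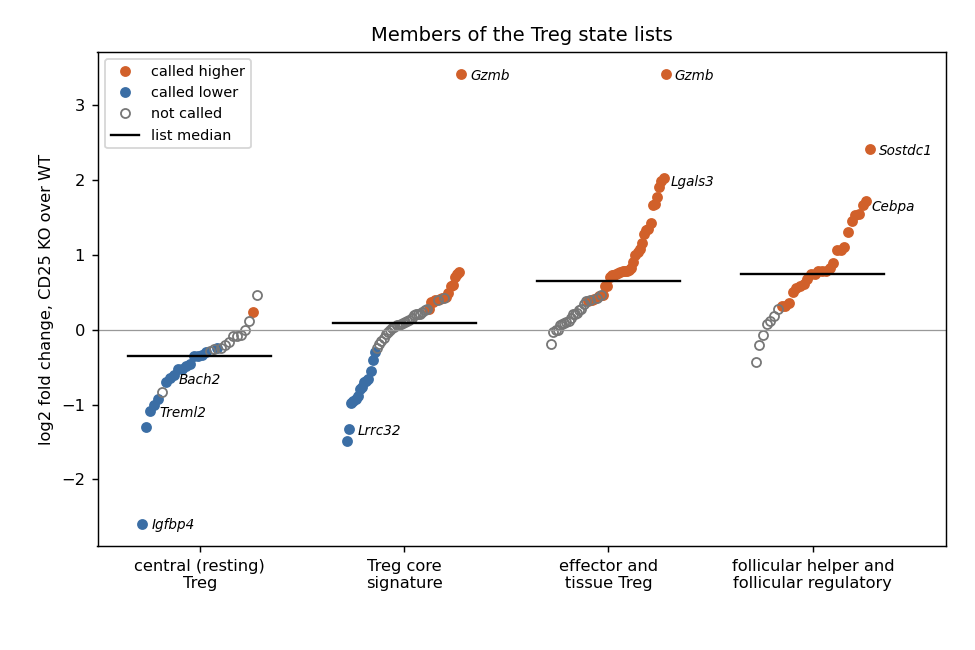
Log2 fold change, CD25 KO over WT, of each tested member of 4 Treg state lists, ordered within a list; filled points were called, open points were not, and black lines are list medians. The central list lies mostly below 0 (median -0.34), the effector and follicular lists mostly above (0.65 and 0.74), and the core signature on both sides (0.10).

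Among genes without protein-coding annotation, several of the largest changes lay inside coding genes that moved the same way, on the annotation of GENCODE M21. Of the 5 largest decreases, Gm37881 (-1.33) lies inside Il2ra, Gm37053 (-1.27) inside Bcl2 (-1.01), both on the same strand as the host, and Gm26771 (-1.37) overlaps Sfrp2 on the opposite strand. Gm15708 (-1.31) overlaps both Bri3 and Baiap2l1, which were not called. Of the 5 largest increases, Gm37347 (1.50) lies inside Il1r2 on the same strand. It had 7.94, 4.65, 3.81 and 4.31 CPM in WT and 13.6, 15.01, 17.75 and 12.51 CPM in CD25 KO mice, which did not overlap. Reads in a stretch that such a transcript and a host on the same strand share cannot be told apart, and for Gm26771 the same holds because the strand setting of the counting is not given. Gm14005 (1.31) and Gm17745 (1.16) overlap no coding gene, and ENSMUSG00000064168.4 (1.37) and ENSMUSG00000096807.1 (1.31) have no name in that annotation.

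The constant genes of the T cell receptor were looked at after their values had been seen. Trac, the alpha constant gene, rose by 0.29 on the log2 scale, and the beta constant genes Trbc1 and Trbc2 had log2 fold changes of 0.30 and 0.15 that did not pass. The gamma constant genes were at low levels. Tcrg-C1 had 2.44, 1.31, 2.4 and 1.83 CPM in WT and 0.887, 0.665, 0.293 and 0.522 CPM in CD25 KO mice (log2 fold change -1.75, SE 0.30, adjusted p = 0.000706) and Tcrg-C4 a log2 fold change of -1.14 (SE 0.19). The groups did not overlap for Tcrg-C1, whereas Tcrg-C2 (-0.23) and the delta constant gene Trdc (-0.24) did not pass.

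The effect of CD25 loss in the spleen was last set against that in thymic Tregs, in the 5 CD25 KO and 5 WT mice described at the start, by a test of the difference itself. Tissue, mouse model, age and the date in the column headers differ together and cannot be told apart, and within the thymus the neonatal splenocytes and the kind of reporter differ together with the genotype. The effects differed for 1305 genes, which is 6.98% of the 18686 tested, 840 of them with a higher and 465 with a lower effect in the spleen, and for 576 of the 1650 splenic DE genes tested. Of the 30 genes with the largest splenic changes 12 differed. The 30 and the 1650 were chosen by their splenic values, which the test of the difference uses again. Their shares therefore cannot be read against the 6.98% of all genes. Lgals3 had a log2 fold change of 1.99 in the spleen and -0.29 in the thymus (difference 2.28, SE 0.30, adjusted p = 4.27e-05). Dnase1l3 had 2.05 and -0.77 (difference 2.82, SE 0.42), and Csgalnact1 2.06 and -1.31 (difference 3.37, SE 0.36). In all 3 the splenic effect was the higher, but thymic levels were low. No thymic mouse exceeded 1.09 CPM for Csgalnact1, 2.84 CPM for Dnase1l3 or 5.0 CPM for Lgals3. Srgap3, Npnt, Dsg2, Neo1 and Slc24a3 differed in the same direction, but the last 4 did not exceed 0.849 CPM in any thymic mouse. Tmem121b and Ntn4 had lower effects in the spleen (differences -1.81 and -1.36), Kcnj15 a less negative one (2.04), and Gm47283 went down in the spleen (-3.67) and had 1.53 in the thymus. Lrrc32 had log2 fold changes of -1.33 in the spleen and -1.30 in the thymus, with a difference of -0.02 (SE 0.29, adjusted p = 0.967), and for Sorcs2 (-1.88 and -1.33), Gata1 (-1.35 and -0.84) and Igfbp4 (-2.59 and -1.22) the difference did not pass. Nor did it pass for Gm15446 (-4.75 and -2.84, adjusted p = 0.16). Its thymic level was 9.92 to 13.2 CPM in WT mice but spread from 0.162 to 7.42 CPM among CD25 KO mice, and the cause of that spread was not tested.

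By list, the effect was higher in the spleen for 37 of 55 effector and tissue Treg genes, whose median was 0.59 in the spleen and -0.60 in the thymus, and lower in none by edgeR. For the follicular list 18 of 32 were higher in the spleen, with medians of 0.74 and -0.12. For the central list 8 of 30 were lower in the spleen, with medians of -0.34 and -0.03. Histone genes had medians of 0.87 and -0.62, and 10 of 54 were called higher and 1 lower in the spleen than in the thymus. Of all 18686 tested genes 840 had a higher and 465 a lower effect in the spleen, with medians of -0.01 and -0.02. The lists were written, and the histone genes chosen, with results of these data known, so these counts too are partly a matter of choice.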

How the data were processed

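RNA of sorted Tregs was depleted of rRNA and sequenced as 75 bp paired-end reads. The authors deposited raw read counts per gene, made with STAR and featureCounts (versions 2.5.0b and 1.5.0 in the submitters' processing notes, genome GRCm38/mm10); the strand and multi-mapping settings are not given in the sources used here. Each count column carried a sample name, and 0 columns were left unmapped. Ensembl identifiers were matched to GENCODE M21 (50376 of 50600).

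Only the 8 splenic libraries entered the comparison (25258341 to 32639570 counts). edgeR 4.0.16 (R 4.3.3) was used with its expression filter, TMM scaling and the quasi-likelihood test, with Benjamini-Hochberg adjustment over 17463 genes and a threshold of 0.01. CPM are TMM-scaled. The difference between tissues was tested as a contrast in all 18 samples. Standard errors of log2 fold changes come from the test statistic. On simulated counts with 200 genes changed 2-fold, 95% were recovered with 5 other calls in the splenic comparison (17242 genes), and 70% with 3 others for the difference between tissues (18265 genes). The changed genes were drawn from well-counted genes only, so recovery of smaller changes and of genes at low levels was not tested.

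The comparison, gene lists and tests were chosen with earlier results of these data known. Genes were named by rule: Il2ra, the 15 largest changes each way among protein-coding genes that the study's text does not name (average log2 CPM of at least 1, groups not overlapping), up to 4 called genes each way per list with other list members where needed, and the 5 largest changes each way among genes without protein-coding annotation. Histone, T cell receptor constant and promoter examples were chosen after their values were seen. Alternatives were DESeq2 1.42.0, other scalings and filters, a GC correction, a minimum fold, a fit of all 18 samples and leaving out each mouse. Promoter windows came from RefSeq (GRCm38.p6). A few genes are not reported here.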

Additional observations from a re-analysis of the deposited data

Results flagged for a closer look

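Of 164 groups of 4 mice examined (82 genes, 2 genotypes), 15 held a mouse far from the other 3. The limit used flags about 1 in 20 groups of independent, normally distributed values. The genes were chosen with their results known and CD25 KO mouse 2 recurred, so the 15 cannot be read against that rate. CD25 KO mouse 2 was the high mouse for Gucy2g (9.41 CPM, others 2.42 to 2.77), Npnt (12.2, others 6.73 to 7.48), Slc24a3 (23.2, others 15.7 to 16.7), Il1r2 (125.1, others 86.5 to 91.9), Cebpa (51.9, others 28.4 to 30.8), Plxnb2 (24.4, others 13.2 to 13.9) and Dusp16 (34.5, others 28.1 to 28.6). CD25 KO mouse 3 was high for Gm47283 (4.11 CPM, others 0.245 to 0.407) and CD25 KO mouse 1 for Lta (16.6, others 14.6 to 14.8). Among WT mice, mouse 1 was high for Cebpa (17.2, others 8.88 to 9.35) and low for Hist1h1b (13.6, others 17.6 to 18.2) and Acvr1c (1.84, others 2.69 to 2.75), mouse 2 was low for Il2ra (473, others 513 to 522), and mouse 4 was low for Il21 (2.41, others 4.14 to 4.4) and high for S100a6 (31.7, others 27.7 to 28.3).

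The CD25 KO effect differed between spleen and thymus, by a test of the difference, for 12 of the 30 genes with the largest splenic changes. These genes were chosen by their splenic values, which the test uses again, so the 12 cannot be read against a share of all genes. The log2 difference, spleen minus thymus, was -5.20 for Gm47283, -1.36 for Ntn4, -1.81 for Tmem121b, 2.04 for Kcnj15, 5.22 for Dsg2, 4.20 for Npnt, 3.82 for Slc24a3, 4.36 for Neo1, 3.37 for Csgalnact1, 2.82 for Dnase1l3, 2.28 for Lgals3 and 2.48 for Srgap3. Tissue, mouse model, age and header date cannot be told apart in these values, nor neonatal splenocytes and reporter from genotype in the thymus.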

How the results depend on the processing

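The 1651 splenic DE genes (1031 higher, 620 lower) became 795 (424 and 371) when all 18 samples shared 1 estimate of the spread, 169 (42 of them lower) when a change beyond 1.5-fold was tested, and 3001 (1774 and 1227) at an adjusted p below 0.05. DESeq2, RLE or upper-quartile scaling, a GC correction and other count filters gave 1592 to 2356. Leaving out each mouse in turn gave 1099 to 1723 DE genes, 689 to 1130 higher and 410 to 605 lower; the lowest total came without WT mouse 3, and the 410 without WT mouse 3 or WT mouse 4. The 457 called list members became 255 in the fit of all samples and 69 with the minimum fold, and 348 to 454 without 1 mouse. The 46 called histone genes, a set added after seeing the data, became 1 in the fit of all samples and 11 with the minimum fold, and 44 to 46 without 1 mouse. The 1305 genes that differed between tissues became 2188 with DESeq2 and 817 to 1143 without 1 splenic mouse, lowest without CD25 KO mouse 2.

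A fit with the replicate number as a block gave 1335 genes for the difference between tissues. The shared numbers did not pair the thymic samples, whose deviations correlated between -0.2395 and 0.1442, and splenic columns carry no pairing in the labels. Of 358 named genes, none changed direction. With DESeq2 2 of them lost the call, with a GC correction 7, with upper-quartile scaling 9, in the fit of all samples 118, with the minimum fold 252 and without 1 mouse 17 to 51, most without WT mouse 3. Genes below about 3 counts, 0.0922 to 0.124 CPM, could not be told from 0 at this depth. The causes of these changes were not tested.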
